A study of Mus musculus with 12 samples.

Results

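The genes that mark the dendritic cell lineage were followed in the spleens of mice given busulfan and then a microbiota transfer. The 10 members, out of 18221 genes with values, were taken by their mouse symbols: Flt3, Zbtb46, Batf3, Irf8, Xcr1, Clec9a, Itgax, Siglech, Ccr9 and Clec4a4. The rule of choice used no measured value, but earlier results of these data were known when it was made. All 10 passed the filter on low values. Whole spleen RNA was sequenced from 12 male ICR mice, an outbred stock, with 3 mice in each of 4 groups. Blank mice (Con-sa in the study) were dosed with saline. Busulfan mice (B-sa) received a single injection of busulfan, an alkylating agent toxic to blood-forming cells, at 40 mg/kg, and saline. Busulfan+Con-FMT mice (B+Con-FMT) received the same busulfan and, once a day by mouth for 2 weeks, the small intestine contents of donors dosed with ddH2O (distilled water). Busulfan+A10-FMT mice (B+A10-FMT) received busulfan and the contents of donors given alginate oligosaccharides (AOS) at 10 mg/kg. Mice entered at 3 weeks of age and spleens were taken at 8 weeks. Donor contents were pooled, so mice of 1 transfer group share 1 kind of inoculum. In whole tissue, fewer cells of a type and less RNA per cell cannot be told apart.

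Dendritic cells take up antigen, display it on MHC class II and start T cell responses. They come from bone marrow precursors that need the receptor Flt3 and its ligand, and they divide into conventional type 1 (cDC1), conventional type 2 (cDC2) and plasmacytoid (pDC) cells. cDC1 depend on Irf8 and Batf3 and present antigen of dead cells to CD8 T cells, splenic cDC2 depend on Irf4 and Notch2 and prime CD4 T cells, and pDC depend on Tcf4 and secrete type I interferon after sensing nucleic acids through Tlr7 and Tlr9.

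Values are RPKM, which scale reads to transcript length and library size, summed over the transcripts of each gene. The steps between the lowest values put the depth at an estimated 15150000 to 15850000 reads per mouse. On that estimate Irf8 rests on about 3000 to 4300 reads per mouse, Siglech on 130 to 400 and Clec4a4, the most thinly covered member, on 22 to 44. Of all genes, 12671 reached an RPKM of 1 in 3 mice or more, and limma compared these on log2(RPKM + 1) in 1 fit of all 12 mice. A call is a Benjamini-Hochberg adjusted p below 0.05 over these genes, and fold changes are on the log2(RPKM + 1) scale, which understates the change of low genes. The spleen label was met by B cell, macrophage and erythroid markers, all of which were detected. Pancreatic acinar and kidney transcripts were also present and differed between mice, as given below.

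The promoters of the pDC genes Siglech and Ccr9 and of the cDC1 genes Clec9a and Xcr1 are shown because the pDC factor Tcf4 is an E protein, a class that binds the E-box CANNTG. The 220 bases are from RefSeq on GRCm38.p6, 5′ to 3′ on the strand of the gene, with each E-box in capitals (CANNTG is its own reverse complement, so the search covers both strands, and no match overlaps another). For Siglech the stretch is chr7:55767934-55768153 (plus strand) and ends at the base before the annotated gene. For Ccr9 it is chr9:123766961-123767180 (plus), for Clec9a chr6:129408612-129408831 (plus) and for Xcr1 chr9:123862060-123862279 (minus), each with 30 bases between its end and the annotated start.
Siglech: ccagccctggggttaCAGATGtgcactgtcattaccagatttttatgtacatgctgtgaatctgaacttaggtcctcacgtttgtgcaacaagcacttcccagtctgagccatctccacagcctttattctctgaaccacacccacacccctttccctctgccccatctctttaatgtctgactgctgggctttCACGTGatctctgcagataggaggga
Ccr9: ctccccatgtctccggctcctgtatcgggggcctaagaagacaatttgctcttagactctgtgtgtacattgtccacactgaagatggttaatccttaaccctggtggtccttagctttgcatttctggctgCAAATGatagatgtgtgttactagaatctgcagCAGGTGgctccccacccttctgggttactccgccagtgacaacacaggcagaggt
Clec9a: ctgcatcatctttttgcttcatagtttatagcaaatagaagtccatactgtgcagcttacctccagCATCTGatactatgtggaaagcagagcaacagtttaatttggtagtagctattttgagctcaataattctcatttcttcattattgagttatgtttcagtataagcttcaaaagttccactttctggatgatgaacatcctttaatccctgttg
Xcr1: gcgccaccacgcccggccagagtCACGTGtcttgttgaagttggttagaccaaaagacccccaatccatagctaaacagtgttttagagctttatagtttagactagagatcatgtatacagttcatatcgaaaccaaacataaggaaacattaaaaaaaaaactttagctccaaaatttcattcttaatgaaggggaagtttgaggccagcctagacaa
Siglech and Ccr9 each held 2 E-boxes, and 27.4% of the 32851 promoter stretches of this length held at least as many. Clec9a and Xcr1 each held 1, as did 62.1% of all stretches at the least. Such a match is a description of the letters and not of binding.

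The 10 genes lie on 7 chromosomes. Siglech (chr7:55768154-55779448) and Itgax (chr7:128129526-128150657) share chromosome 7 and Clec4a4 (chr6:122990367-123024421) and Clec9a (chr6:129408862-129424764) share chromosome 6. Ccr9 (chr9:123767211-123783457) and Xcr1 (chr9:123852315-123862029), both chemokine receptors, are neighbors on chromosome 9. The others are Batf3 (chr1:191098414-191108943), Zbtb46 (chr2:181371009-181493262), Flt3 (chr5:147330741-147400489) and Irf8 (chr8:120736358-120756694), all on GRCm38.p6.

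In Busulfan, 3 of the 10 genes, Siglech, Clec4a4 and Irf8, were lower than in Blank and 0 were higher. Among all genes tested 9.78% were called lower and 4.73% higher in that comparison. In Busulfan+Con-FMT 1 gene, Siglech, was lower than in Busulfan, where 0.221% of all genes were called lower. That share depended on single mice: 28 genes were called lower, against 226 without Busulfan mouse 1 and 1 without Busulfan mouse 2. In Busulfan+A10-FMT 1 gene, Clec4a4, was higher than in Busulfan, where 5.27% of all genes were called in either direction, and 3 genes, Siglech, Clec4a4 and Itgax, were higher than in Busulfan+Con-FMT, against 7.58% of all genes. The same 3 were lower in Busulfan+Con-FMT than in Blank, against 6.57% of all genes. Between Busulfan+A10-FMT and Blank limma called 0 of the 10, where it called 0.410% of all genes. At an unadjusted p under 0.05, 3 of the 10 (Irf8, Siglech and Ccr9) passed in that comparison. Comparisons with a shared group are not independent of each other. The direction of calls over all genes depended on scaling. With median-of-ratios scaling 56.8% of the genes called in Busulfan versus Blank were higher, against 32.6% as deposited, and the shares were 46.6% against 75.9% in Busulfan+A10-FMT versus Busulfan, 44.2% against 73.2% in Busulfan+A10-FMT versus Busulfan+Con-FMT and 55.9% against 26.0% in Busulfan+Con-FMT versus Blank. With totals made equal outside the globin genes they were 37.2% against 73.8% in Busulfan+Con-FMT versus Busulfan, 89.8% against 73.2% in Busulfan+A10-FMT versus Busulfan+Con-FMT and 10.8% against 26.0% in Busulfan+Con-FMT versus Blank. With the trend along transcript length removed, the share higher in Busulfan versus Blank was 57.7%. It was then 56.2% in Busulfan+A10-FMT versus Busulfan, 52.9% in Busulfan+A10-FMT versus Busulfan+Con-FMT and 50.3% in Busulfan+Con-FMT versus Blank. No called member changed direction under any of these settings.

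**Figure D1:**
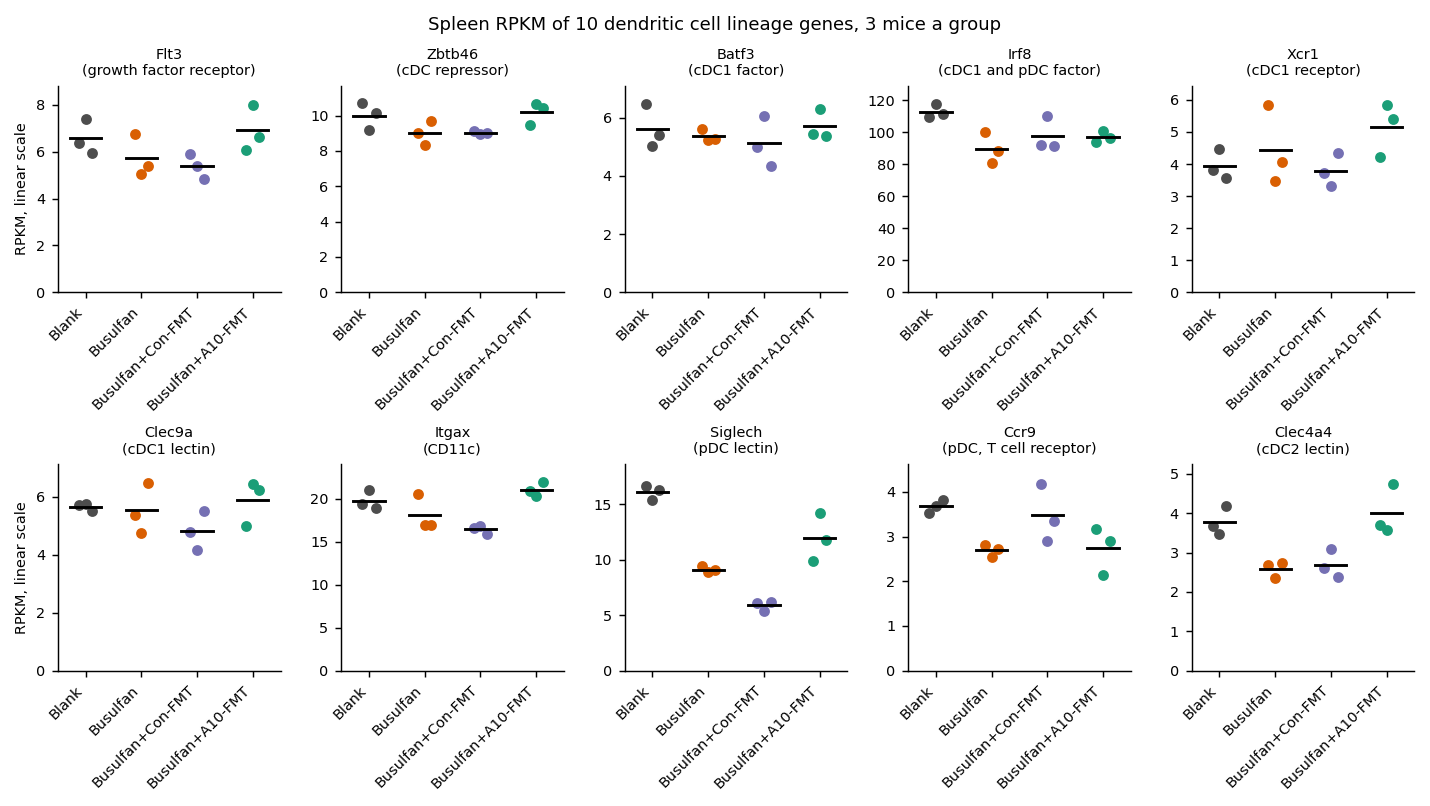
RPKM (linear axis from 0) of the 10 genes by group; each point is 1 mouse and the black bar is the mean of 3 mice. Siglech is highest in Blank (15.4 to 16.7 RPKM) and lowest in Busulfan+Con-FMT (5.39 to 6.21), while the groups overlap widely for Batf3, Xcr1 and Clec9a.

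Siglech is a sialic acid binding lectin of pDC that is also found on some splenic macrophages. It had the largest fitted difference of the 10 in each comparison except Busulfan+A10-FMT versus Busulfan, where Clec4a4 had it (0.48 against 0.35). Siglech was 16.7, 15.4 and 16.3 RPKM in the Blank mice, 9.38, 8.84 and 9.04 in Busulfan, 6.08, 5.39 and 6.21 in Busulfan+Con-FMT, and 9.91, 14.2 and 11.8 in Busulfan+A10-FMT. No pair of groups overlapped, and the order was Blank, Busulfan+A10-FMT, Busulfan and Busulfan+Con-FMT. The Busulfan mean was 0.564 of the Blank mean (log2 fold change -0.76, SE 0.10, adjusted p = 0.0027 by limma). Busulfan+Con-FMT was lower again than Busulfan (9.09 ± 0.27 against 5.89 ± 0.44 RPKM, SD, n = 3 each; log2 fold change -0.55, SE 0.10, limma adjusted p = 0.0229). This is the one member called between these groups. The call was lost without XM and XR transcripts (adjusted p = 0.124) or when Busulfan mouse 2 or 3 or Busulfan+Con-FMT mouse 1 or 2 was left out (adjusted p 0.0664 to 0.0914).

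Busulfan+A10-FMT exceeded Busulfan+Con-FMT 2.03-fold in Siglech (11.99 ± 2.2 against 5.89 ± 0.44 RPKM, SD, n = 3 each), with a log2 fold change of 0.90 (SE 0.10, limma adjusted p = 0.000545). It was called in this comparison, in Busulfan versus Blank and in Busulfan+Con-FMT versus Blank (log2 fold change -1.31, adjusted p = 7.92e-05) under every alternative run. Against the other neighbors in the order the test did not call a difference. Busulfan+A10-FMT lay above Busulfan with a log2 fold change of 0.35 (95% interval 0.14 to 0.56, not adjusted; adjusted p = 0.0551) and below Blank with -0.41 (-0.62 to -0.20; adjusted p = 0.121), in both cases with no overlap between the mice. The first was called without Busulfan+A10-FMT mouse 1 (0.47, limma adjusted p = 0.0207) and with totals made equal outside the globin genes (0.36, adjusted p = 0.0472), and the second without Busulfan+A10-FMT mouse 2 (-0.53, adjusted p = 0.0427).

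The tables list 11 transcripts of Siglech, whose split is an estimate of the authors' pipeline. NM_178706.5 carried 48.9% of the summed value. Its mean was 7.73 RPKM in Blank, 5.50 in Busulfan, 2.96 in Busulfan+Con-FMT and 4.86 in Busulfan+A10-FMT, so this transcript was lower in Busulfan+A10-FMT than in Busulfan while the summed gene was higher. The summed difference was spread over other transcripts, of which NM_001310740.1 was 0.57 to 0.76 RPKM in Busulfan and 1.26 to 2.82 in Busulfan+A10-FMT. With NM transcripts alone, Siglech differed between Busulfan+A10-FMT and Busulfan by 0.16 in log2 (adjusted p = 0.502).

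Ccr9, the receptor for Ccl25 on pDC and on T cells, was not called in any comparison of all 12 mice. Its values were 3.53, 3.69 and 3.81 RPKM in Blank, 2.81, 2.55 and 2.72 in Busulfan, 4.18, 2.91 and 3.34 in Busulfan+Con-FMT, and 3.17, 2.15 and 2.90 in Busulfan+A10-FMT. All Busulfan and all Busulfan+A10-FMT mice were below the Blank mice, with log2 fold changes of -0.34 (95% interval -0.59 to -0.09, adjusted p = 0.0656) and -0.33 (-0.58 to -0.08, adjusted p = 0.257). The difference between Busulfan and Blank was called when these 2 groups were fitted alone (limma adjusted p = 0.0403) and without Busulfan+Con-FMT mouse 1 or Busulfan+A10-FMT mouse 2 (0.0481 and 0.0446). Busulfan+Con-FMT spanned the Blank range, so summed Ccr9 did not follow the order seen for Siglech. The transcript NM_009913.6, with 79.7% of the summed value, averaged 3.37 RPKM in Blank, 2.29 in Busulfan, 2.34 in Busulfan+Con-FMT and 2.04 in Busulfan+A10-FMT. The other, NM_001166625.1, averaged 0.31, 0.41, 1.14 and 0.70 in the same order. This split is an estimate of the authors' pipeline.

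Irf8, the transcription factor needed by cDC1 and active in pDC, monocytes and B cells, had the highest level of the 10. It was 109.5, 118 and 111 RPKM in Blank and fell to 100.2, 80.8 and 88.6 in Busulfan (log2 fold change -0.33, SE 0.08, limma adjusted p = 0.0229). Values in Busulfan+Con-FMT were 92.3, 110.2 and 91.4, and in Busulfan+A10-FMT 93.7, 101 and 96.8. Neither transfer group was called against Busulfan or Blank, and their log2 fold changes from Busulfan were 0.12 each (95% intervals -0.06 to 0.30 and -0.06 to 0.29). The call in Busulfan versus Blank was lost when any of the 3 Blank mice, or Busulfan mouse 2 or 3, was left out (adjusted p 0.0504 to 0.0987). B cell markers, which share Irf8 expression, were lower in Busulfan too (4 of 8 called, summed level 1533 to 1842 RPKM against 1985 to 2200 in Blank), and their part in the Irf8 value was not tested.

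Other pDC genes were read from a list of 19, of which 17 passed the filter. In Busulfan 6 of the 17 were called lower than in Blank and 0 higher. The median of the 17 was -0.29 in log2, against -0.04 over all genes. Among the called genes, the 4 of largest size were Cd209d (3.34 against 8.62 RPKM, log2 fold change -1.15), Cd300c (0.817 against 3 RPKM, -1.14), Atp1b1 (10.9 against 15.2, -0.44) and Klra17 (6.86 against 9.34, -0.39), with adjusted p by limma of 0.0129, 0.00757, 0.0134 and 0.0303. Tcf4, the E protein that sets pDC identity, also fell, from 20.7 to 17.3 RPKM (log2 fold change -0.25, SE 0.07, adjusted p = 0.031), as did Spib, a pDC and B cell factor (142 to 116 RPKM, -0.30, adjusted p = 0.0249). Cd209d is also a macrophage lectin, so the list is not restricted to pDC.

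In Busulfan+Con-FMT 8 of the 17 were lower than in Blank, with Cd209d at 2.38 RPKM (log2 fold change -1.57, adjusted p = 0.00541), Cd300c at 1.03 (-1.02, 0.0146), Cox6a2 at 2.92 (-0.56, 0.0397) and Klra17 at 6.06 (-0.55, 0.0112) having the largest size. Limma called none of the 17 between Busulfan+Con-FMT and Busulfan, and 2 (Spib and Klk1) had an unadjusted p under 0.05. Busulfan+A10-FMT was above Busulfan in 3, Tlr7 (17.4 against 11.9 RPKM, log2 fold change 0.51, limma adjusted p = 0.0287), Klra17 (0.42, 0.0432) and Zeb2 (0.30, 0.038). The same 3 and Mpeg1 were above Busulfan+Con-FMT (Tlr7 0.61, Klra17 0.57, Zeb2 0.43, Mpeg1 0.39), where Tlr7, the endosomal receptor for single-stranded RNA, was 15.4, 20.5 and 16.2 RPKM against 10.9, 10.1 and 12.02.

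Cd209d and Cd300c lay below Blank in Busulfan+A10-FMT as well. Cd209d was 7.68, 8.20 and 9.98 RPKM in Blank and 3.10, 2.47 and 3.77 in Busulfan+A10-FMT, and Cd300c was 2.97, 3.08 and 2.95 against 0.560, 1.67 and 1.11. Neither was called between Busulfan+A10-FMT and Blank, yet every Busulfan+A10-FMT mouse was below every Blank mouse in both. The same held, without a call, for Tcf4 (16.4 to 19.4 against 19.6 to 21.8 RPKM), Spib and Cox6a2. In all, 5 of the 17 were lower than in Blank with no overlap, against 9.90% of all genes, and 1 was higher. The genes of highest level, Ly6d (a B cell gene too), Spib and Mpeg1, are shared with other spleen cells. Irf7, the interferon regulator of pDC, was 47.2, 115 and 62.2 RPKM in Busulfan+A10-FMT and 34.2, 40.2 and 43.7 in Busulfan+Con-FMT (log2 fold change 0.81, adjusted p = 0.186, not called). Klk1, a pancreas and kidney gene too, ran from 7.22 to 145 RPKM. Its mean was highest in Busulfan+Con-FMT, the group whose pancreatic transcripts had the highest median sum. Busulfan+A10-FMT mouse 3 lay within the range of that group in both, and Blank mouse 2 did so in Klk1.

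Clec4a4, the lectin Dcir2 of cDC2, was called in 4 of the 6 comparisons. It was 3.68, 3.46 and 4.19 RPKM in Blank, 2.67, 2.34 and 2.73 in Busulfan, 2.60, 3.09 and 2.37 in Busulfan+Con-FMT, and 3.71, 3.58 and 4.74 in Busulfan+A10-FMT. The 6 mice of Busulfan and Busulfan+Con-FMT lay below the other 6 with no overlap. It was lower in Busulfan than in Blank (log2 fold change -0.42, SE 0.11, limma adjusted p = 0.0249) and in Busulfan+Con-FMT than in Blank (-0.38, adjusted p = 0.0472). Busulfan+A10-FMT was higher than Busulfan (4.01 ± 0.64 against 2.58 ± 0.21 RPKM, SD, n = 3 each; 0.48, SE 0.11, limma adjusted p = 0.027) and higher than Busulfan+Con-FMT (0.44, SE 0.11, adjusted p = 0.0249). Between Busulfan+A10-FMT and Blank the difference was 0.06 (95% interval -0.17 to 0.30). Reads of this gene can be shared with its close relatives Clec4a1, Clec4a2 and Clec4a3, and it rests on few reads. When 1 mouse was left out at a time, the call was lost without Blank mouse 1 or 3 or Busulfan mouse 2 (Busulfan versus Blank, adjusted p 0.0608 to 0.0994), without Busulfan mouse 2 or any Busulfan+A10-FMT mouse (Busulfan+A10-FMT versus Busulfan, 0.05 to 0.106), without Busulfan+Con-FMT mouse 1 or 3 or Busulfan+A10-FMT mouse 2 or 3 (Busulfan+A10-FMT versus Busulfan+Con-FMT, 0.055 to 0.0881), and without any of 8 mice (Busulfan+Con-FMT versus Blank, 0.0528 to 0.135).

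Among 18 cDC2 genes, all tested, 3 were lower in Busulfan than in Blank: Cd209a, a lectin of this lineage (7.43 against 11.9 RPKM, log2 fold change -0.64, limma adjusted p = 0.0375), Notch2, the receptor needed by splenic cDC2 and marginal zone B cells (14.5 against 20.2, -0.46, adjusted p = 0.0027), and Dtx1, a Notch target (50.5 against 67.5, -0.42, adjusted p = 0.00764). Notch2 was 21.0, 20.2 and 19.5 RPKM in Blank and 14.7, 13.2 and 15.5 in Busulfan. It was 15.2, 15.4 and 15.1 in Busulfan+Con-FMT and 19.4, 18.3 and 18.8 in Busulfan+A10-FMT, so the groups split as for Clec4a4. The RPKM summed over all transcripts split the mice in this way too. That sum was 719521 to 772157 in Busulfan and Busulfan+Con-FMT and 677033 to 701773 in Blank and Busulfan+A10-FMT, and its part was not tested. The median of the 18 in Busulfan versus Blank was -0.09.

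Busulfan+A10-FMT was above Busulfan+Con-FMT in 5 of the 18 and below in 0, namely Klf4 (log2 fold change 0.42), Rbpj, the DNA-binding partner of Notch (0.38), Ltbr, a lymphotoxin receptor (0.36), Sirpa, a cDC2 and macrophage surface protein (0.32), and Notch2 (0.29). The limma adjusted p lay between 0.0105 and 0.0302 in these 5. Against Busulfan it was above in 3, Dtx1 (0.38), Notch2 (0.36) and Sirpa (0.26). Dtx1 alone was called between Busulfan+Con-FMT and Busulfan (69.8 against 50.5 RPKM, 0.47, adjusted p = 0.0167). In Busulfan+Con-FMT 4 genes were lower than in Blank, Irf4 (16.4 against 23.4 RPKM, -0.49), Notch2 (-0.39), Rbpj (-0.38) and Klf4 (-0.29). Limma called 0 of the 18 between Busulfan+A10-FMT and Blank, and 4 (Sirpa, Clec10a, Clec4a2 and Clec12a) had an unadjusted p under 0.05. Cd4, among the 3 of highest level with Sirpa and Dtx1, is shared with T cells.

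Apart from Irf8, given above, the cDC1 genes among the members were not called in any comparison. Xcr1, the receptor through which cDC1 find Xcl1-secreting T and NK cells, was 3.82, 4.47 and 3.55 RPKM in Blank, 5.83, 3.46 and 4.06 in Busulfan, 3.72, 3.32 and 4.34 in Busulfan+Con-FMT, and 4.23, 5.84 and 5.39 in Busulfan+A10-FMT. In all, 1 Busulfan mouse and 2 Busulfan+A10-FMT mice stood above all the rest. The log2 fold change in Busulfan versus Blank was 0.12 (95% interval -0.20 to 0.45) and in Busulfan+A10-FMT versus Busulfan+Con-FMT 0.36 (0.03 to 0.68, not adjusted; adjusted p = 0.14).

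Clec9a, the cDC1 receptor for actin exposed by dead cells, was 5.50 to 5.74 RPKM in Blank, 4.73 to 6.48 in Busulfan, 4.17 to 5.50 in Busulfan+Con-FMT and 4.99 to 6.44 in Busulfan+A10-FMT. Batf3, the factor that maintains cDC1, was 5.02 to 6.47, 5.22 to 5.61, 4.35 to 6.05 and 5.39 to 6.30 in the same order. The intervals of busulfan alone against Blank were -0.28 to 0.21 for Clec9a and -0.28 to 0.18 for Batf3 in log2, so a change of the size seen for Siglech lay outside both. The Siglech interval in that comparison was -0.97 to -0.55.

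In a list of 14 further cDC1 genes, 1 was lower and 1 higher in Busulfan than in Blank. Wdfy4, needed for cross-presentation and also a B cell gene, was 25.3 against 32.6 RPKM (log2 fold change -0.35, limma adjusted p = 0.0203), and Cd24a was 1615 against 1337 RPKM (0.27, adjusted p = 0.0484). Cd24a is abundant on red cell precursors, whose markers were called higher in 4 of 8 cases in the same comparison, and their part was not tested. Between Busulfan+A10-FMT and Busulfan+Con-FMT 5 of the 14 were higher, with Tlr3, a receptor for double-stranded RNA (9.41 against 6.25 RPKM, 0.52, adjusted p = 0.0223), Tlr11 (3.93 against 2.50, 0.49, 0.0152) and the adhesion molecule Cadm1 (8.84 against 6.66, 0.36, 0.00964) having the largest size. Gcsam, a germinal center B cell gene as well, was the 1 lower gene (8.14 against 12.1 RPKM, -0.53, 0.0101). Tlr3 was the 1 gene called in Busulfan+A10-FMT versus Busulfan (0.54, adjusted p = 0.0287), and Cadm1 and Wdfy4 were lower in Busulfan+Con-FMT than in Blank (-0.27 and -0.40).

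Of the chemokines for the member receptors, Xcl1 was 6.31, 6.21 and 5.05 RPKM in Blank, 5.24, 2.99 and 2.82 in Busulfan, 3.07, 2.88 and 4.55 in Busulfan+Con-FMT, and 5.04, 2.83 and 3.49 in Busulfan+A10-FMT. It was not called in any comparison (Busulfan versus Blank -0.58 in log2, adjusted p = 0.0918). Xcl1 is made by NK cells, and all 8 NK markers were called lower in Busulfan than in Blank. The part of NK cells in the Xcl1 values was not tested. Ccl25, the ligand of Ccr9, was 1.22 to 2.34 RPKM over the 12 mice, and limma did not call it in any comparison.

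Flt3, the growth factor receptor of the whole lineage, was 6.38, 7.42 and 5.93 RPKM in Blank, 6.75, 5.05 and 5.38 in Busulfan, 5.89, 5.41 and 4.83 in Busulfan+Con-FMT, and 6.08, 8.01 and 6.65 in Busulfan+A10-FMT. It was not called, although every Busulfan+A10-FMT mouse was above every Busulfan+Con-FMT mouse (log2 fold change 0.31, 95% interval 0.06 to 0.56, adjusted p = 0.104). With totals made equal outside the globin genes this difference was called (0.36, limma adjusted p = 0.0425). Zbtb46, a repressor found in conventional but not plasmacytoid cells, ran the same way in a narrower range. It was 10.7, 9.18 and 10.1 RPKM in Blank, 9.04, 8.34 and 9.72 in Busulfan, 9.13, 8.98 and 8.99 in Busulfan+Con-FMT, and 9.48, 10.7 and 10.4 in Busulfan+A10-FMT (Busulfan+A10-FMT versus Busulfan+Con-FMT 0.16, adjusted p = 0.177).

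Itgax, the integrin CD11c of dendritic cells and some macrophages, was 19.3, 20.9 and 18.9 RPKM in Blank, 20.5, 16.9 and 16.9 in Busulfan, 16.6, 16.8 and 15.9 in Busulfan+Con-FMT, and 20.9, 20.3 and 21.9 in Busulfan+A10-FMT. The 3 Busulfan+Con-FMT mice were the lowest of the 12. Busulfan+A10-FMT exceeded Busulfan+Con-FMT by 0.34 in log2 (21.0 ± 0.8 against 16.4 ± 0.5 RPKM, SD, n = 3 each; SE 0.07, limma adjusted p = 0.0158), and Busulfan+Con-FMT was below Blank by a log2 fold change of -0.25 (SE 0.07, adjusted p = 0.0496). The first call was lost without Busulfan+Con-FMT mouse 1 or Busulfan+A10-FMT mouse 2 (adjusted p 0.0524 and 0.055), and the second was kept in 6 of 23 alternatives and lost without any of 9 single mice (0.0571 to 0.156). Without Busulfan mouse 1, Itgax was also called lower in Busulfan than in Blank (-0.21, limma adjusted p = 0.0365) and higher in Busulfan+A10-FMT than in Busulfan (0.30, adjusted p = 0.0207).

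**Figure D2:**
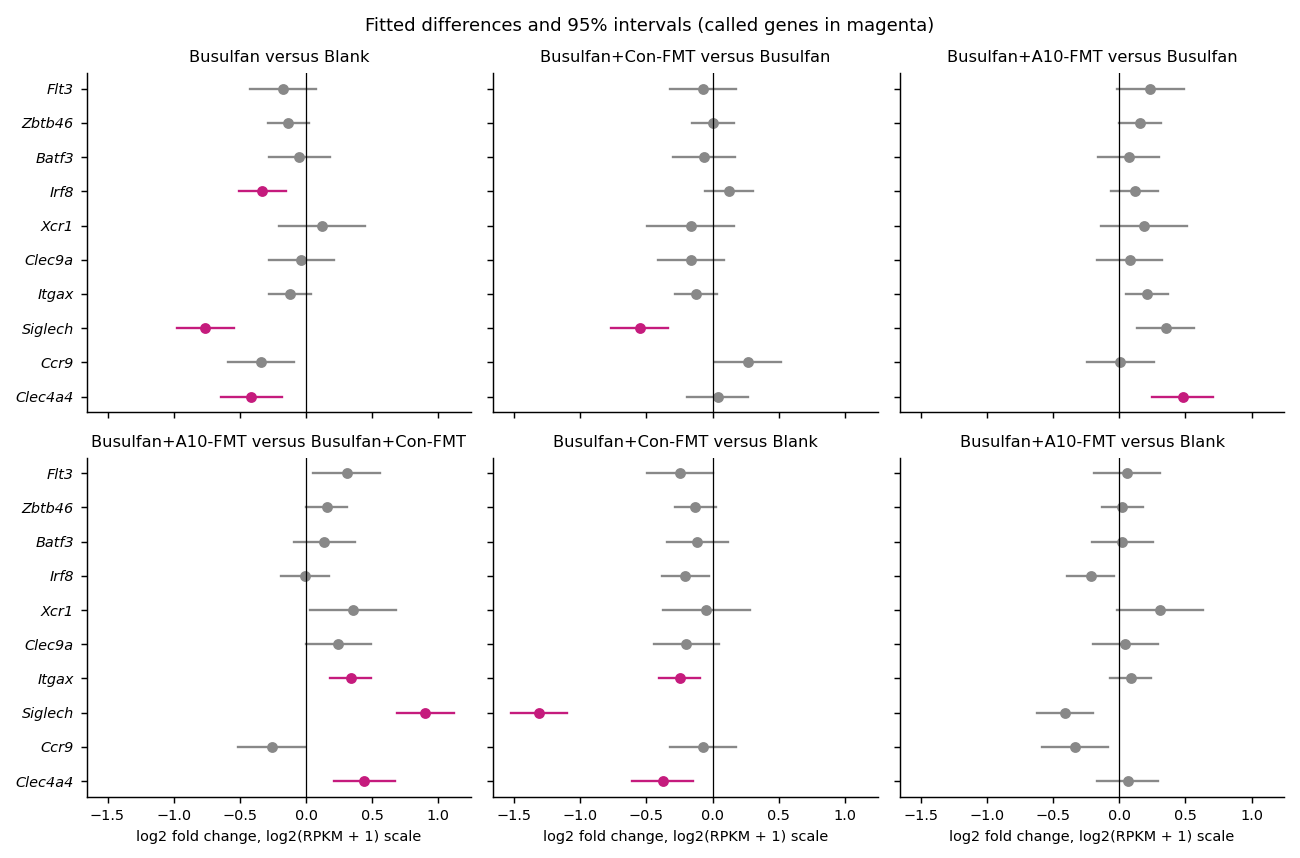
Fitted log2 fold change of the 10 genes in the 6 comparisons (x axis, log2(RPKM + 1) scale) with 95% intervals that are not adjusted for multiple testing; called genes are in magenta. Siglech has the widest displacement from 0, at -1.31 in Busulfan+Con-FMT versus Blank and 0.90 in Busulfan+A10-FMT versus Busulfan+Con-FMT.

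The ligand Flt3l, which drives dendritic cell development through Flt3, was not called in any comparison. Its level was 24.0 ± 2.5 RPKM in Blank, 24.3 ± 0.8 in Busulfan, 24.8 ± 1.5 in Busulfan+Con-FMT and 24.9 ± 2.9 in Busulfan+A10-FMT (SD, n = 3 each), and its interval in Busulfan versus Blank was -0.17 to 0.21 in log2. Of 19 growth factor and signaling genes 18 were tested, and Csf1, the macrophage growth factor, Ltb, a lymphotoxin subunit that maintains splenic cDC2, and the kinase Mtor were lower in Busulfan than in Blank (-0.32, -0.24 and -0.24). Csf1 was 24.4 RPKM in Busulfan and 33.4 in Busulfan+A10-FMT (0.44, limma adjusted p = 0.00248). Its receptor Csf1r (0.46) and the stem cell factor receptor Kit (0.24) were also called higher there. Against Busulfan+Con-FMT, Busulfan+A10-FMT was higher in 5, led by Kitl (0.52), Csf1r (0.46) and Kit (0.42), and lower in Ltb (-0.22). Ltb was the 1 gene called in Busulfan+Con-FMT versus Busulfan (263 against 204 RPKM, 0.36, adjusted p = 0.0167). In Busulfan+Con-FMT, Lta was higher than in Blank (0.34) and Kit and Mtor lower (-0.24 and -0.23).

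MHC class II genes, carried by B cells as well as dendritic cells, were lower in Busulfan than in Blank in 6 of 10, with the invariant chain Cd74 at 3272 against 4029 RPKM (log2 fold change -0.30, limma adjusted p = 0.0151) and the transactivator Ciita at 29.7 against 39.4 (-0.40, 0.0129). In Busulfan+Con-FMT 4 of 10 were below Blank. H2-Oa, a peptide loading modulator, was the 1 gene higher in Busulfan+A10-FMT than in Busulfan (0.38) and than in Busulfan+Con-FMT (0.35). Of 19 genes of mature dendritic cells, 18 of them tested, Cd40 and Cd200 were lower in Busulfan (-0.25 each), Birc3 and Cd200 were higher in Busulfan+A10-FMT than in Busulfan+Con-FMT (0.27 and 0.25), and in Busulfan+Con-FMT against Blank Cd80 was higher and Cd200 lower (0.25 and -0.32). Ccr7, the receptor that guides mature cells to T cell zones, stayed between 41.2 and 58.3 RPKM and was not called.

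**Figure D3:**
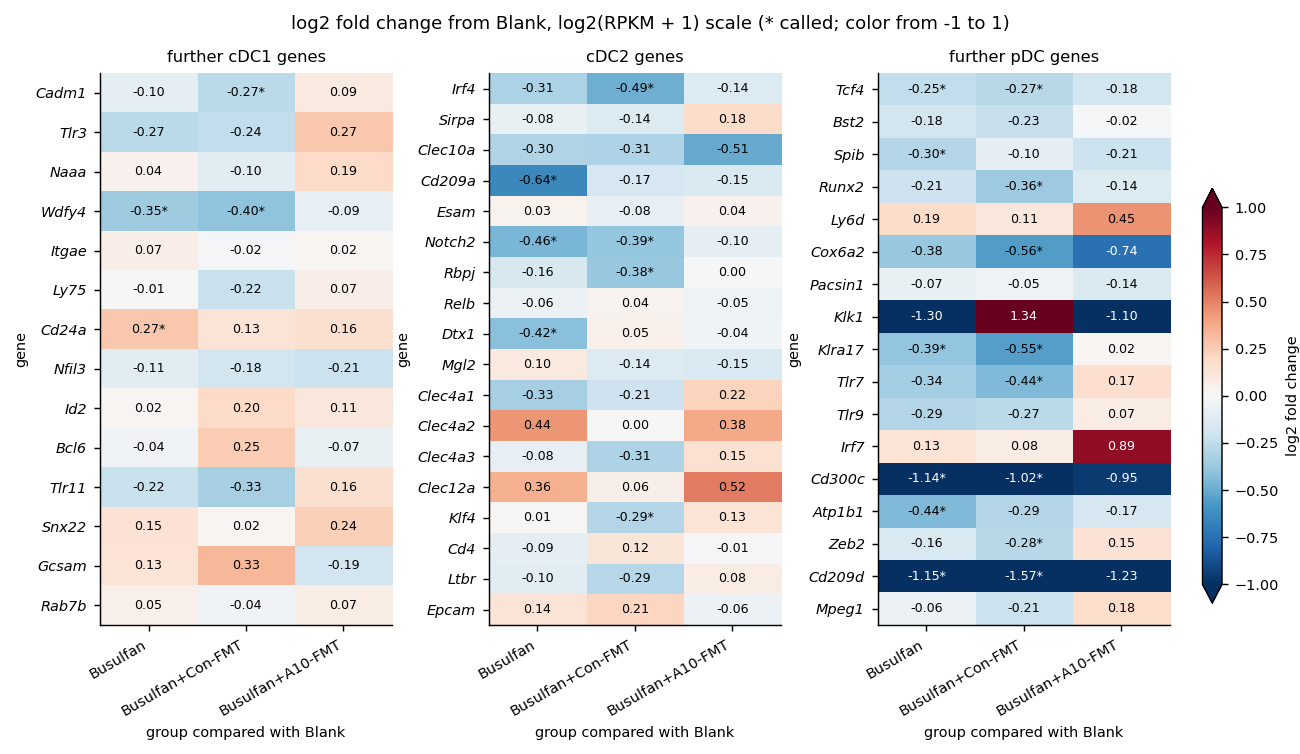
log2 fold change from Blank (color from -1 to 1, values in the cells, asterisk for a call) of the tested genes of the 3 further lineage lists, with genes as rows and the Busulfan, Busulfan+Con-FMT and Busulfan+A10-FMT groups as columns. In the pDC list 6 genes are called in Busulfan, 8 in Busulfan+Con-FMT and 0 in Busulfan+A10-FMT, in the cDC2 list 3, 4 and 0, and in the cDC1 list 2, 2 and 0. In Busulfan+A10-FMT versus Blank only 0.410% of all genes were called. There 7 of 17 pDC, 4 of 18 cDC2 and 3 of 14 cDC1 genes had an unadjusted limma p under 0.05.

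By counts, the 10 members had a median log2 fold change of -0.15 in Busulfan versus Blank, where all genes tested had -0.04, and 4 of them did not overlap and were lower (22.8% of all genes). In Busulfan+Con-FMT versus Blank the median was -0.20 against -0.04, and 5 were lower with no overlap (23.6% of all genes). For Busulfan+A10-FMT versus Busulfan+Con-FMT it was 0.28 against 0.05, and 5 were higher with no overlap (23.8% of all genes). Between Busulfan+A10-FMT and Busulfan it was 0.17 against 0.05, with 2 higher and not overlapping (19.7% of all genes), and in Busulfan+A10-FMT versus Blank 0.03 against 0.01, with 3 lower and not overlapping, Irf8, Siglech and Ccr9 (9.90% of all genes). In Busulfan+Con-FMT versus Busulfan it was -0.07 against 0.00, with Siglech and Itgax lower (9.05% of all genes) and Ccr9 higher (10.4% of all genes).

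Markers of other cells moved between the same groups. The 8 NK markers summed to 89.3 to 98.6 RPKM in Blank, 32.8 to 33.7 in Busulfan, 27.2 to 37.9 in Busulfan+Con-FMT and 34.5 to 56.3 in Busulfan+A10-FMT, with 8 of 8 called lower in Busulfan and 7 of 8 in Busulfan+Con-FMT. The 12 macrophage markers, of interest because Siglech, Itgax, Sirpa and Cd209d are also macrophage genes, summed to 1098 to 1136 RPKM in Blank, 953 to 1180 in Busulfan, 840 to 1073 in Busulfan+Con-FMT and 1205 to 1487 in Busulfan+A10-FMT. Limma called 6 of the 12 higher in Busulfan+A10-FMT than in Busulfan+Con-FMT. In Busulfan versus Blank it called 0 of the 12 (0 at an unadjusted p under 0.05). There 8 of the 12 differences were negative and 4 positive, with a median log2 fold change of -0.08. Endothelial markers were higher in Busulfan+A10-FMT than in Busulfan+Con-FMT in 7 of 9, and T cell markers were higher in Busulfan+Con-FMT than in Blank in 4 of 10. Of 11 monocyte and neutrophil markers, 2 were called higher in Busulfan than in Blank. In that list 10 differences were positive and 1 negative, with a median log2 fold change of 1.07. Its sum was 5090 to 7621 RPKM in Busulfan and 3357 to 3563 in Blank. Of the 5 progenitor markers tested, Kit was the 1 gene called, in the 3 comparisons given above. The part of these cells in the member values was not tested.

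Pancreatic acinar markers summed to 994 to 5257 RPKM in Blank, 374 to 2558 in Busulfan, 6370 to 9957 in Busulfan+Con-FMT and 381 to 7783 in Busulfan+A10-FMT, and the 4 kidney markers, chiefly Kap, to 75.3 to 117, 7.67 to 14.9, 17.2 to 62.0 and 0.710 to 3.19. When Blank mouse 2 and Busulfan+A10-FMT mouse 3, the mice of highest acinar level in their groups, were left out together, Siglech kept its 3 largest calls (log2 fold changes of -0.79, -1.34 and 0.91 in Busulfan versus Blank, Busulfan+Con-FMT versus Blank and Busulfan+A10-FMT versus Busulfan+Con-FMT). Clec4a4 was then called only in Busulfan versus Blank (-0.46, limma adjusted p = 0.0376), and Itgax and Irf8 in no comparison. This fit kept all Busulfan+Con-FMT mice, at 6370 to 9957 RPKM of acinar markers, beside Busulfan+A10-FMT mice at 381 and 672. It did not make the groups alike in acinar level, so it cannot show whether the calls depend on that level.

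**Figure D4:**
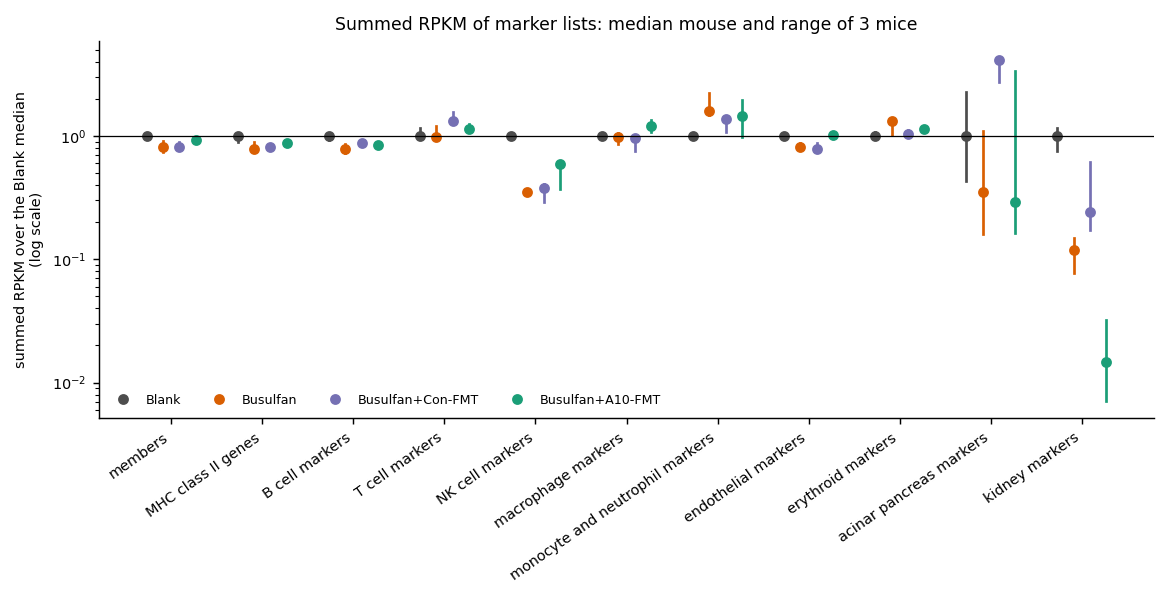
Summed RPKM of marker lists over the Blank median (log axis); points are the median mouse and lines the range of 3 mice in each group. NK markers are lower in all 3 busulfan groups, macrophage markers are highest in Busulfan+A10-FMT, and kidney and acinar pancreas markers vary most over all mice.

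The genes whose levels tracked a member most closely over the 12 mice were named for 3 members, as a description of points that share groups and libraries. For Siglech these were Ccr2, a chemokine receptor of monocytes (Pearson r = 0.960 on log2(RPKM + 1)), Fyco1 (0.957) and Xrn2 (0.947). Ccr2 was 8.69 to 9.22 RPKM in Blank, 7.22 to 7.80 in Busulfan, 5.92 to 6.82 in Busulfan+Con-FMT and 7.75 to 9.31 in Busulfan+A10-FMT, the same order of group means as Siglech. For Clec4a4 they were Dact1 (0.950), Tet2 (0.945) and Mfhas1 (0.939), and for Xcr1 Tmem69 (0.946), Tmx2 (0.934) and Ociad1 (0.915).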

How the data were processed

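Spleen RNA of 12 mice was measured. The authors purified RNA with TRIzol, DNase and oligo(dT), mapped the reads and converted them to RPKM, and they deposited these RPKM for 60654 RefSeq transcripts in each mouse. The paper names SOAPaligner and HiSeq, whereas the submitters' processing notes name HISAT, Bowtie2 and mm10 and their protocol a BGISEQ library; which made these values could not be settled, and the strand setting is not given in the sources used here. RPKM were summed per Entrez gene (18221 genes, 18101 with a symbol in RefSeq GRCm38.p6). Counts were not used here, so precision rests on the spread of 3 mice; depth was estimated from the steps of low single-transcript values.

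Of the genes, 12671 reached an RPKM of 1 in 3 mice or more; limma 3.58.1 (R 4.3.3; trend and robust settings, two-sided, group as the only term) was run on their log2(RPKM + 1) values and checked on simulated data. Values are mean ± SD unless an SE is given. The labels do not say how samples of a group were drawn, so p-values measure only the spread between these samples, which may be partly technical. Members, lists and tests were chosen with earlier results of these data known. All members were named. Of each further list, up to 3 genes of highest RPKM and called genes were named, at most 4 per comparison by size of change. Tcf4, Spib, Irf7, Klk1, genes beyond 4, and Cd209d, Cd300c and Cox6a2 in Busulfan+A10-FMT were added after their values were seen. The 3 genes of highest Pearson r for Siglech, Clec4a4 and Xcr1 were also named. Alternatives were another pseudocount, other filters, a replicate block, 2-group fits, each mouse left out, 2 scalings, NM transcripts only, plain limma, a length correction and, chosen after seeing the data, 2 mice of high pancreatic transcripts left out. The promoter of Clec4a4 was not used here.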

Additional observations from a re-analysis of the deposited data

How the results depend on the processing

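Each member was refitted under 23 alternatives in each comparison. Of the 60 member differences, 18 changed sign in 42 cases, and 0 of these were called values. Siglech kept its calls in Busulfan versus Blank (log2 fold change -0.82 to -0.58 over all settings), Busulfan+Con-FMT versus Blank (-1.44 to -1.07) and Busulfan+A10-FMT versus Busulfan+Con-FMT (0.64 to 1.02) under all of them. The number of members called moved as follows, and the cause was not tested. In Busulfan+Con-FMT versus Busulfan, 0 were called with NM transcripts only. Between Busulfan+A10-FMT and Busulfan, 0 were called with only the 2 groups compared, with NM transcripts only and without the 2 mice of high pancreatic transcripts, and 2 (Clec4a4 and Siglech) with equal totals outside globin genes. Between Busulfan+A10-FMT and Busulfan+Con-FMT, 1 (Siglech) was called without the 2 mice of high pancreatic transcripts. In Busulfan+Con-FMT versus Blank, 1 (Siglech) was called with no filter, median-of-ratios scaling, NM transcripts only, the replicate block and without the 2 mice of high pancreatic transcripts. With 1 mouse left out, which also leaves fewer residual degrees of freedom, the number ran from 1 to 4 in Busulfan versus Blank, 0 to 1 in Busulfan+Con-FMT versus Busulfan, 0 to 2 in Busulfan+A10-FMT versus Busulfan, 1 to 3 in Busulfan+A10-FMT versus Busulfan+Con-FMT, 1 to 3 in Busulfan+Con-FMT versus Blank and 0 to 1 in Busulfan+A10-FMT versus Blank. Single calls were lost in further cases. With NM transcripts only, Clec4a4 was not called in Busulfan versus Blank or in Busulfan+A10-FMT versus Busulfan+Con-FMT. In the latter Clec4a4 was also lost with only the 2 groups compared, and Itgax with the length correction. In Busulfan+Con-FMT versus Blank, Itgax was lost with the other pseudocount, plain limma and the length correction. Clec4a4 was lost there with only the 2 groups compared.

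Replicate numbers did not pair the samples. Same-numbered mice of different groups had correlations of deviations from -0.37 to 0.30, and differently numbered mice from -0.43 to 0.51. With the replicate block 1 member was called in Busulfan+Con-FMT versus Blank in place of 3, and the number called was as in the fit without the block in the other 5 comparisons. Over all genes the block gave 1462, 85, 417, 917, 773 and 41 calls in the order Busulfan versus Blank, Busulfan+Con-FMT versus Busulfan, Busulfan+A10-FMT versus Busulfan, Busulfan+A10-FMT versus Busulfan+Con-FMT, Busulfan+Con-FMT versus Blank and Busulfan+A10-FMT versus Blank, in place of 1838, 107, 668, 1312, 1124 and 52. In the same order, NM transcripts only gave 741, 25, 203, 546, 382 and 1, fits of only 2 groups 972, 32, 158, 1016, 1021 and 36, the length correction 1363, 158, 313, 796, 755 and 57, no filter 1549, 71, 459, 902, 875 and 66, equal totals outside globin genes 1681, 180, 721, 2339, 1836 and 64, and leaving out the 2 mice of high pancreatic transcripts 614, 99, 217, 644, 337 and 29. With 1 mouse left out, calls over all genes ran from 510 to 2100, 19 to 468, 106 to 833, 222 to 1559, 337 to 1308 and 1 to 75 in that order.

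The sign changes were all of differences near 0. With median-of-ratios scaling they were Clec9a in Busulfan versus Blank (0.0056) and Ccr9 in Busulfan+A10-FMT versus Busulfan (-0.027). With equal totals outside globin genes they were Zbtb46 in Busulfan+Con-FMT versus Busulfan (-0.046) and Irf8 in Busulfan+A10-FMT versus Busulfan+Con-FMT (0.049), and with NM transcripts only Zbtb46 in Busulfan+Con-FMT versus Busulfan (-0.024). With the length correction they were Clec4a4 in Busulfan+Con-FMT versus Busulfan (-0.020), Ccr9 in Busulfan+A10-FMT versus Busulfan (-0.070), and Xcr1 (0.039) and Ccr9 (0.0031) in Busulfan+Con-FMT versus Blank. Without the 2 mice of high pancreatic transcripts they were Ccr9 in Busulfan+A10-FMT versus Busulfan (-0.027), Xcr1 in Busulfan+Con-FMT versus Blank (0.028), and Zbtb46 (-0.047), Batf3 (-0.011) and Clec4a4 (-0.086) in Busulfan+A10-FMT versus Blank.

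With 1 mouse left out at a time, the members whose difference took both signs had these lowest and highest log2 fold changes. In Busulfan versus Blank, Batf3 -0.12 to 0.037, Xcr1 -0.054 to 0.25 and Clec9a -0.14 to 0.053. In Busulfan+Con-FMT versus Busulfan, Flt3 -0.14 to 0.034, Zbtb46 -0.048 to 0.051, Batf3 -0.17 to 0.028, Xcr1 -0.30 to 0.0075 and Clec4a4 -0.038 to 0.10. In Busulfan+A10-FMT versus Busulfan, Clec9a -0.0081 to 0.18 and Ccr9 -0.075 to 0.13. In Busulfan+A10-FMT versus Busulfan+Con-FMT, Irf8 -0.055 to 0.078. In Busulfan+Con-FMT versus Blank, Xcr1 -0.13 to 0.028 and Ccr9 -0.18 to 0.0203. In Busulfan+A10-FMT versus Blank, Flt3 -0.037 to 0.14, Zbtb46 -0.031 to 0.07, Batf3 -0.045 to 0.11, Clec9a -0.014 to 0.14 and Clec4a4 -0.038 to 0.13.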
